A study of Oryza sativa with 8 samples.

Results

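Untreated seedlings of the transgenic rice line OE1 were compared with untreated seedlings of ZH11, the japonica cultivar labelled as its wild type. The labels describe OE1 as an overexpressor of ScOYE3, which belongs to the old yellow enzymes and comes from baker's yeast. The untreated OE1 group and the untreated ZH11 group each had 2 libraries, and each library was made from a pool of 20 whole plants that had grown for 2 weeks in hydroponic medium. A treated OE1 group and a treated ZH11 group, of 2 libraries each, came from seedlings collected 8 h after addition of 0.8 mM 2-nitroaniline, a nitroaromatic compound. The genes described are those with a level of at least 1 TPM in 2 or more of the 4 untreated libraries, where TPM is transcript abundance corrected for gene length and library total. They number 24417 of the 57403 genes of the expression matrix, and 23155 of them carry a LOC_Os locus identifier while 1245 are genes assembled from the reads (MSTRG identifiers). OE1 is 1 line, the promoter of its transgene is not given in the sources used here, and no matrix entry (0) carries the name ScOYE3, so the transgene level was not analysed here.

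Old yellow enzymes are flavin-dependent oxidoreductases that use NADPH to reduce activated alkenes and some nitro compounds. Their closest plant relatives are the 12-oxophytodienoate reductases (OPR), of which a peroxisomal form acts in the synthesis of the hormone jasmonate. A line compared with wild type in the absence of the chemical shows which transcripts differ before any treatment. Because whole plants were used, fewer cells of a type and less RNA per cell cannot be told apart in any value below.

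The untreated OE1 libraries held 56.5 M and 54.8 M trimmed reads and the untreated ZH11 libraries 49.8 M and 48.3 M, of which 92.14% to 93.07% were placed at a single position. Separate growth of the 2 pools of a group is not stated, so the p-values cover the spread between these libraries alone, and that spread may be technical. Replicates differed by a median absolute log2 value of 0.10 in untreated OE1 and 0.20 in untreated ZH11, against 0.16 in treated OE1 and 0.45 in treated ZH11. Mean read length was 149.78 nt in untreated ZH11 replicate 2 and 149.1 nt in treated ZH11 replicate 2, against 144.95 to 146.85 nt in the other 6 libraries. The longer-read libraries are all of ZH11, so no OE1 value exists within that class. Untreated ZH11 replicate 2 also differed from replicate 1 with gene length, by a median of -0.09 on the log2 scale in genes of up to 500 nt and of 0.27 in genes over 5000 nt.

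Most transcripts were at like levels in untreated OE1 and ZH11, and the genes that differed were mainly genes near absence in ZH11. Calls required a limma p under 0.05 after Benjamini-Hochberg adjustment and a fold of at least 2. Folds were taken on log2(TPM + 1), a scale on which changes of low genes appear smaller than they are. Standard errors (SE) rest on a spread pooled over the 8 libraries, with n = 2 per group. In OE1 100 genes were called higher, or 0.41% of those described, and 12 were called lower, or 0.0491%. The median log2 fold over all 24417 genes was 0.01, and 1220 genes, or 5.0%, had an unadjusted p under 0.05. Both directions together make 112 genes, or 0.459%. The counts changed when 1 library was left out. Fewer genes were called without any 1 untreated library or treated OE1 library, and more without a treated ZH11 library. Each such fit leaves 1 library in a group and fewer degrees of freedom. The lower counts therefore do not show that single libraries carried the calls. The longer-read libraries are replicate 2 of both ZH11 groups, so the shorter-read libraries alone leave 1 ZH11 library in each condition. That fit takes its spread from the OE1 pairs alone, and its median log2 fold over all the genes described was 0.02. A read-length term in the fit of all 8 libraries is estimated from the ZH11 libraries alone. With it 87 genes were called, 77 of them among the 112, and the median was 0.06.

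**Figure D1:**
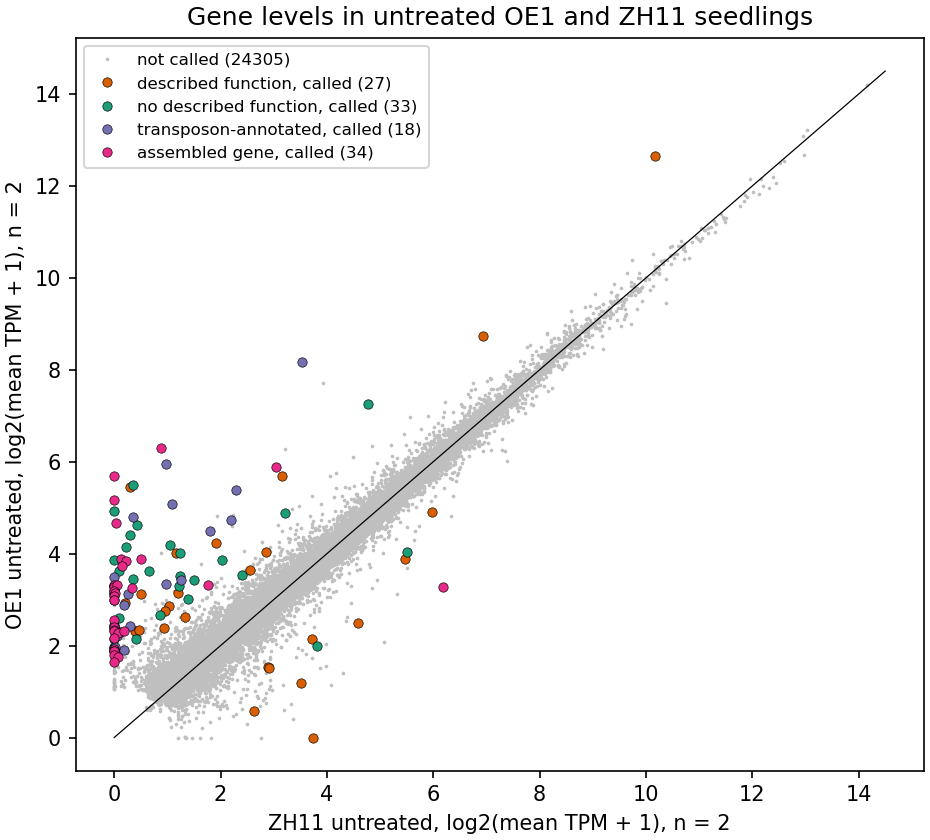
Mean level in untreated OE1 (vertical axis) and untreated ZH11 (horizontal axis), both as log2(mean TPM + 1) of 2 libraries. Grey points are genes not called, coloured points are the 112 called genes by annotation, and the line marks equal levels. Many called genes stand at the left edge, where ZH11 is near 0.

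The genes called higher were mostly of low level in ZH11. Their mean level had a median of 8.71 TPM in OE1, with a range of 2.14 to 6391 TPM, and a median of 0.17 TPM in ZH11. Of 333 genes that reached 1 TPM in both OE1 libraries and in neither ZH11 library, 68 were called higher, and of 126 genes with the opposite pattern 2 were called lower. Genes at 1 TPM or more in all 4 libraries numbered 22395, of which 23 were called higher (0.103%) and 10 lower (0.0447%). There were 44 genes listed at 0 in both ZH11 libraries with at least 2 TPM in both OE1 libraries, against 3 genes listed at 0 in both OE1 libraries with at least 2 TPM in both ZH11 libraries. The filter limits these counts, since a gene that reached the 1 TPM minimum only through the OE1 libraries had its direction largely fixed. Such genes number 1148 of the 24417 described and 92 of the 839 annotated as transposon or retrotransposon. Among the assembled genes called higher, 30 of 33 were under 1 TPM in both ZH11 libraries. The called genes divided unevenly by annotation, and nothing about the classes is read from it. Of 16757 genes with a described function 18 were called higher (0.107%) and 9 lower, of 5576 with no described function 31 higher (0.556%) and 2 lower, of 839 annotated as transposon or retrotransposon 18 higher (2.15%) and 0 lower, and of 1245 assembled genes 33 higher (2.65%) and 1 lower. Without any one of the untreated libraries 7 to 9 transposon-annotated and 12 to 14 assembled genes were called higher. Genes called higher had a median length of 1012 nt, against 1620 nt for all the genes described. With the length gradient of each library removed, 121 genes were called, 102 of them among the 112.

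Transposons are mobile DNA elements whose genes encode the transposase or reverse transcriptase that moves them. LOC_Os06g45810 on chromosome 6, matched to the AC transposase of the hAT family of cut-and-paste elements, had 61.2 and 60.5 TPM in OE1 and 1.30 and 0.61 TPM in ZH11 (log2 fold 5.01 ± 0.25 SE, limma adjusted p = 0.000433). LOC_Os10g11330, with the same match, had 24.9 and 28.8 TPM in OE1 and 0.07 and 0.48 TPM in ZH11 (4.46 ± 0.25, limma adjusted p = 0.000631). LOC_Os12g42940 on chromosome 12, matched to the AC9 transposase, had 34.0 and 31.4 TPM in OE1 and 1.42 and 0.81 TPM in ZH11 (4.01 ± 0.23, limma adjusted p = 0.000631). In each of these genes both OE1 libraries stood above both ZH11 libraries, as was so for 21.8% of all the genes described. None of them had 1 TPM in both ZH11 libraries, so the filter largely fixed their direction. The AC transposase match and a length of 1788 nt are shared by 9 of the genes described, 4 of them called. Of the 9, 8 reached the 1 TPM minimum only through the OE1 libraries, so the filter largely fixed their direction and nothing is read from it. Their summed level was 151 and 152 TPM in OE1 and 5.86 and 6.12 TPM in ZH11. These copies share a match and a length, but their sequences were not compared, so how reads were shared out among them is uncertain. The sum carries the same limit of the filter as its members. The sum and the choice of the 9 copies were made after the values were seen.

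Elements of other kinds were also among the called genes. LOC_Os07g32710 on chromosome 7, annotated as an unclassified protein of a retrotransposon, an element that copies itself through RNA, had 306 and 271 TPM in OE1 and 15.4 and 5.73 TPM in ZH11 (4.78 ± 0.40, limma adjusted p = 0.0032). Its call ended without untreated OE1 replicate 1 (limma adjusted p = 0.0511) and with no filter (0.0876). LOC_Os02g03640, described only as an expressed protein, carries transposase domains of the En/Spm elements, which move as DNA, and had 15.1 and 18.1 TPM in OE1 and 0.12 and 0.21 TPM in ZH11 (3.92 ± 0.19, limma adjusted p = 0.000433). Most transposon-annotated genes did not share these differences: the median log2 fold over the 839 was 0.01, with 191 of them (22.8%) higher and 168 (20.0%) lower in both OE1 libraries than in both ZH11 libraries, close to the 21.8% and 19.9% of all genes. Their summed level was 12097 and 12228 TPM in OE1 and 11777 and 11741 TPM in ZH11.

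Genes with no described function made up a large share of the remaining calls. LOC_Os02g53240 on chromosome 2 had 44.2 and 43.6 TPM in OE1 and 0 and 0.54 TPM in ZH11 (5.18 ± 0.25, limma adjusted p = 0.000433). LOC_Os03g02470 on chromosome 3, with a domain of unknown function, had 29.4 and 29.3 TPM in OE1 and was listed at 0 in both ZH11 libraries (limma adjusted p = 0.000137). The authors' deposited table of called genes gives it 649 and 633 estimated counts in OE1 and 0 and 0 in ZH11. LOC_Os10g24004 was unlike these in being well expressed in both lines, with 151 and 151 TPM in OE1 and 30.7 and 21.8 TPM in ZH11 (2.50 ± 0.17, limma adjusted p = 0.00116). LOC_Os11g35300 (22.4 and 24.7 TPM in OE1, 0.36 and 0.32 TPM in ZH11) and LOC_Os12g32390 (20.3 and 19.9 TPM in OE1, 0.47 and 0 TPM in ZH11) rose by 4.19 ± 0.31 and 4.12 ± 0.24 (limma adjusted p = 0.0016 and 0.000747). LOC_Os11g35300 is described only as an expressed protein, and its best match is cis-zeatin O-glucosyltransferase 1. LOC_Os06g09980 had 28.2 and 29.0 TPM in OE1 and 7.58 and 9.01 TPM in ZH11 (1.68 ± 0.22, limma adjusted p = 0.0323), a call that ended with either rescaling, no filter and a read-length term (limma adjusted p = 0.059 to 0.202) and without any one of the untreated libraries or of the treated OE1 libraries.

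The 33 assembled genes called higher have no locus identifier, and 3 of them have a protein domain. Both ZH11 libraries were under 1 TPM for 30 of them and listed at 0 for 19. The assembled genes named here were chosen after their values were seen. MSTRG.6873 had 77.4 and 78.8 TPM in OE1 and 1.12 and 0.56 TPM in ZH11, and MSTRG.8110 had 48.1 and 53.2 TPM in OE1 and was listed at 0 in both ZH11 libraries. MSTRG.5948, matched to an adenylate kinase, an enzyme that balances adenine nucleotides, was the one assembled gene called lower, with 6.46 and 10.9 TPM in OE1 and 46.3 and 96.7 TPM in ZH11.

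Of the genes with a described function that rose, the most abundant encoded a defense peptide. LOC_Os07g25050 on chromosome 7 encodes a thionin-like peptide, of a kind with small cysteine-rich members that act against microbes. It had 6446 and 6336 TPM in OE1 and 1116 and 1189 TPM in ZH11 (2.47 ± 0.15, limma adjusted p = 0.000881), a call that ended when genes with low values were not filtered out (limma adjusted p = 0.433). It took 0.645% and 0.634% of all TPM in the OE1 libraries, where it ranked 5 and 4 by level, and 0.112% and 0.119% in the ZH11 libraries, where it ranked 71 and 64. A second thionin-like gene, LOC_Os07g24830, had 624 and 608 TPM in OE1 and 394 and 373 TPM in ZH11 (0.68 ± 0.32) and was not called. The third, LOC_Os07g25060, had 15.1 and 10.4 TPM in OE1 and 4.23 and 0 TPM in ZH11 and was not called. All 3 had both OE1 libraries above both ZH11 libraries, as did 21.8% of all genes, and LOC_Os07g25060 reached the 1 TPM minimum only through the OE1 libraries.

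A gene of nitrogen assimilation was near absent in ZH11 and present in OE1. LOC_Os02g52730 on chromosome 2 encodes a ferredoxin-nitrite reductase, the plastid enzyme that reduces nitrite to ammonium. It had 44.1 and 41.5 TPM in OE1 and 0.32 and 0.14 TPM in ZH11 (5.16 ± 0.25, limma adjusted p = 0.000433), and the authors' deposited table gives it 1591 and 1460 estimated counts in OE1 and 10.1 and 4.01 in ZH11. The more abundant gene for the enzyme, LOC_Os01g25484, had 1471 and 1392 TPM in OE1 and 1360 and 1446 TPM in ZH11 (0.03), with overlapping groups. Both genes have the same best rice protein match, so the split of reads between them is uncertain. Of the 26 genes of nitrogen metabolism LOC_Os02g52730 was the 1 called, against 0.459% of all genes. It reached the 1 TPM minimum only through the OE1 libraries. The cytosolic glutamine synthetase gene GLN1-2 (LOC_Os03g12290), whose product fixes ammonium, had 208 and 212 TPM in OE1 and 102 and 110 TPM in ZH11 (0.98 ± 0.14), just under the fold required.

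Beside the nitrite reductase gene in locus order, with no described gene between them, LOC_Os02g52710 encodes an alpha-amylase, which breaks down starch, with AMY1.1 as its best rice match. It had 510 and 343 TPM in OE1 and 130 and 113 TPM in ZH11 (1.78 ± 0.24, limma adjusted p = 0.0358). The amylase genes LOC_Os02g52700, with 36.0 and 24.6 TPM in OE1 and 9.17 and 9.26 TPM in ZH11, and AMY1.6 (LOC_Os09g28420), with 58.4 and 42.3 TPM in OE1 and 18.1 and 13.1 TPM in ZH11, were not called (1.59 and 1.63, limma adjusted p = 0.0552 and 0.0898). LOC_Os02g52700 and LOC_Os02g52710 share their best match, so their read split is uncertain too. Some other amylase genes had log2 folds below 0: AMY1.4 (LOC_Os08g36900) had 3.79 and 1.49 TPM in OE1 and 5.07 and 5.23 TPM in ZH11 (-0.83 ± 0.52), and LOC_Os01g51754, AMY2A and AMY1.3 had log2 folds of -0.12, -0.12 and -0.26, none of them called. Of the 9 amylase genes described 4, or 44.4%, had both OE1 libraries above both ZH11 libraries, against 21.8% of all genes. In 2, or 22.2%, both were below, against 19.9%. Of the 9, 1 reached the 1 TPM minimum only through the OE1 libraries. LOC_Os04g17660, with a rhodanese domain of sulfur-transferring enzymes, had 49.6 and 51.8 TPM in OE1 and 9.24 and 6.65 TPM in ZH11 (2.55 ± 0.37, limma adjusted p = 0.0448). LOC_Os09g25330, with the BTB and NPH3 domains of plant ubiquitin ligase adaptors, had 15.9 and 14.8 TPM in OE1 and 6.16 and 6.36 TPM in ZH11 (1.17 ± 0.16, limma adjusted p = 0.0419). The calls of LOC_Os02g52710, LOC_Os04g17660 and LOC_Os09g25330 each ended without any one of the untreated libraries or of the treated OE1 libraries. Other settings ended these calls too. That of LOC_Os02g52710 ended with no filter, the untreated libraries alone, a read-length term and the shorter-read libraries alone (limma adjusted p = 0.0662 to 0.272). That of LOC_Os04g17660 ended with either rescaling, a pseudocount of 0.1, no filter, the filter at 5 TPM and no trend (limma adjusted p = 0.0506 to 0.353). That of LOC_Os09g25330 ended with a pseudocount of 5, no filter and a read-length term (limma adjusted p = 0.0509 to 0.0718).

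Further called genes of this kind were chosen for description after their values were seen. LOC_Os01g57700, a TauE/SafE family membrane protein gene, rose by 2.86 ± 0.19, with 16.1 and 14.2 TPM in OE1 and 1.47 and 0.98 TPM in ZH11. LOC_Os04g45950, of the amino acid permease family, rose by 2.61 ± 0.19, with 7.42 and 7.94 TPM in OE1 and 0.35 and 0.49 TPM in ZH11. LOC_Os03g05640 is annotated as an inorganic phosphate transporter gene, for a protein that takes up phosphate, and had 5.13 and 6.30 TPM in OE1 and 1.08 and 0.78 TPM in ZH11 (1.80 ± 0.26). LOC_Os02g45450, a dehydration-responsive element-binding factor gene, had 3.77 and 4.14 TPM in OE1 and 0.23 and 0.38 TPM in ZH11 (1.93 ± 0.24). In each of these genes both OE1 libraries were above both ZH11 libraries, as in 21.8% of all genes. None of them had 1 TPM in both ZH11 libraries, so each reached the minimum only through the OE1 libraries.

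**Figure D2:**
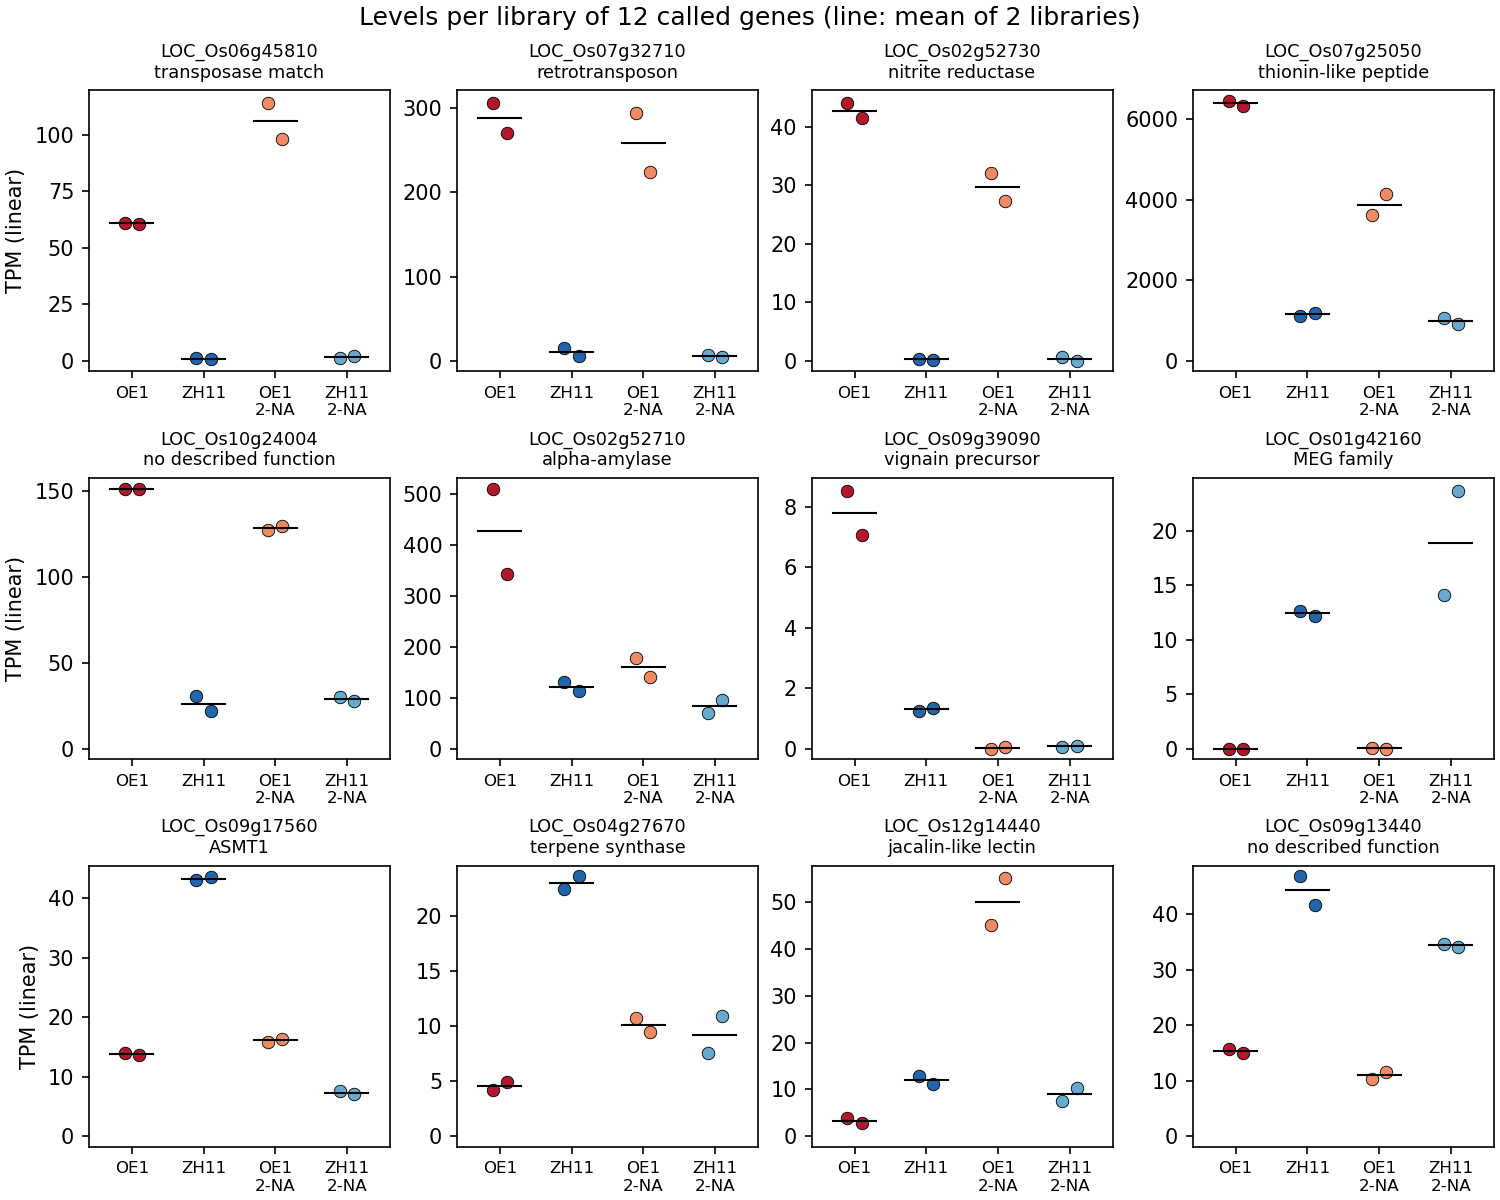
Level in TPM, on linear axes starting near 0, of 12 called genes in each library of untreated OE1, untreated ZH11, OE1 given 2-nitroaniline (2-NA) and ZH11 given 2-nitroaniline. Points are libraries and bars are means of 2 libraries. ASMT1 and the jacalin-like lectin gene are lower in untreated OE1 and higher in treated OE1 than in the ZH11 group beside them.

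Among the 12 genes that fell in OE1 were 2 genes of terpene synthases and 2 of methyltransferases. LOC_Os01g42160 on chromosome 1 encodes a peptide of the MEG family, named for a maize gene expressed from the maternal allele in the endosperm. It was listed at 0 in both OE1 libraries and at 12.7 and 12.2 TPM in ZH11 (limma adjusted p = 0.00109). The authors' deposited table gives it 0 and 0 estimated counts in OE1 and 330 and 299 in ZH11. Its relative LOC_Os04g06340 had 7.50 and 5.80 TPM in OE1 and 11.5 and 5.38 TPM in ZH11, with overlapping groups. LOC_Os04g52440, matched to a gamma-aminobutyrate transaminase, which degrades that amino acid, had 1 and 1.54 TPM in OE1 and 8.74 and 12.2 TPM in ZH11 (-2.33 ± 0.31, limma adjusted p = 0.0307).

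Terpene synthases make volatile and defensive hydrocarbons. LOC_Os04g27670, matched to a tau-cadinol synthase, had 4.25 and 4.95 TPM in OE1 and 22.4 and 23.6 TPM in ZH11 (-2.10 ± 0.20, limma adjusted p = 0.00602). LOC_Os08g04500, matched to a beta-caryophyllene synthase, had 1.98 and 1.85 TPM in OE1 and 6.30 and 6.61 TPM in ZH11 (-1.35 ± 0.20, limma adjusted p = 0.0484). Of the 17 terpene synthase genes described these 2 were called, against 0.0491% of all genes called lower. The list median was -0.26 against 0.01 for all genes. In 11 of the 17, or 64.7%, both OE1 libraries were below both ZH11 libraries, against 19.9% of all genes. In 2, or 11.8%, both were above, against 21.8%. Of the 17, 1 reached the 1 TPM minimum only through the OE1 libraries. Those that did so only through the ZH11 libraries were not counted, so the filter may have fixed part of this direction. The germacrene synthase match LOC_Os04g01810, with 0.94 and 1.04 TPM in OE1 and 3.23 and 4.28 TPM in ZH11, was not called (-1.25 ± 0.40). It reached the 1 TPM minimum only through the ZH11 libraries. The diterpene synthase gene KSL8 (LOC_Os11g28530) had 18.5 and 19.6 TPM in OE1 and 17.7 and 18.9 TPM in ZH11, with overlapping groups.

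Both methyltransferase genes match enzymes that act on small aromatic compounds. ASMT1 (LOC_Os09g17560), the best match to the acetylserotonin O-methyltransferase of the last step of melatonin synthesis, had 14.1 and 13.6 TPM in OE1 and 43.0 and 43.6 TPM in ZH11 (-1.58 ± 0.14, limma adjusted p = 0.00402). LOC_Os06g13390, matched to an anthranilate O-methyltransferase, had 0.34 and 0.65 TPM in OE1 and 5.06 and 5.32 TPM in ZH11 (-2.06 ± 0.22, limma adjusted p = 0.0121). The jacalin-like lectin gene LOC_Os12g14440, matched to GOS9 and of a family that binds carbohydrates, had 4.01 and 2.77 TPM in OE1 and 13.0 and 11.2 TPM in ZH11 (-1.59 ± 0.22, limma adjusted p = 0.0434). In each of the 3 genes both OE1 libraries were below both ZH11 libraries, as in 19.9% of all genes. LOC_Os06g13390 reached the 1 TPM minimum only through the ZH11 libraries.

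The other genes that fell belong to further families. LOC_Os09g13440, with no described function, had 15.7 and 15.0 TPM in OE1 and 46.9 and 41.6 TPM in ZH11 (-1.46 ± 0.14, limma adjusted p = 0.00699). LOC_Os12g21784, whose best match is the calcium-dependent protein kinase CPK7, had 2.75 and 3.23 TPM in OE1 and 11.4 and 14.6 TPM in ZH11 (-1.80 ± 0.25, limma adjusted p = 0.04). LOC_Os11g02379 (LTPL6), of the lipid transfer protein family, had 27.6 and 30.6 TPM in OE1 and 58.3 and 65.8 TPM in ZH11 (-1.07 ± 0.14, limma adjusted p = 0.0307). LOC_Os01g23710, annotated as a NAC-type (no apical meristem) transcription factor gene, had 1.69 and 2.04 TPM in OE1 and 5.64 and 7.33 TPM in ZH11 (-1.38 ± 0.20, limma adjusted p = 0.0497). Of the 11 named genes that fell, LOC_Os01g42160 was called without each library in turn, and the other calls each ended without any one of the untreated libraries, for ASMT1 at a limma adjusted p of 0.0564 to 0.107. Of these other calls 8 ended also under at least 1 setting of the filter, pseudocount, read length or libraries used, and those of ASMT1 and LOC_Os09g13440 did not.

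Rice's own relatives of the yeast enzyme number 13 in the matrix, and 10 of them were among the genes described. None of the 10 was called, which in a list this short says nothing particular about them, since 0.459% of all genes were called. Their median log2 fold was -0.05. OPR7 (LOC_Os08g35740), the form that acts in jasmonate synthesis, had 44.1 and 46.3 TPM in OE1 and 46.7 and 48.2 TPM in ZH11 (-0.07 ± 0.15). OPR1 (LOC_Os06g11290) had 12.9 and 10.8 TPM in OE1 and 9.17 and 7.82 TPM in ZH11 (0.43 ± 0.25). OPR5 (LOC_Os06g11210) had 92.8 and 85.8 TPM in OE1 and 57.6 and 69.7 TPM in ZH11 (0.49 ± 0.18, limma adjusted p = 0.85). Its OE1 libraries were both above its ZH11 libraries, as in 21.8% of all genes. The other 7 relatives had log2 folds of -0.62 to 0.32, with the lowest, in OPR13 (MSTRG.15563), resting on unlike ZH11 libraries of 3.51 and 7.89 TPM.

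Families that modify foreign compounds were read against the 0.41% of all genes called higher, which leaves few calls to be seen in lists of this size. Of 209 cytochrome P450 genes 1 rose, LOC_Os11g05380, matched to P450 94C1, with 5.33 and 4.89 TPM in OE1 and 1.52 and 1.48 TPM in ZH11 (1.29 ± 0.19, limma adjusted p = 0.0457). None was called among 110 UDP-glycosyltransferase genes, 77 glutathione S-transferase genes, 29 aldo-keto reductase genes and 42 MATE transporter genes, with medians between 0 and 0.10. Of 71 BAHD acyltransferase genes 1 rose, LOC_Os01g15740, with 12.3 and 10.5 TPM in OE1 and 0.17 and 0.96 TPM in ZH11, and the median was 0.12. LOC_Os01g15740 reached the 1 TPM minimum only through the OE1 libraries, so the filter largely fixed its direction. LOC_Os11g05380 and LOC_Os01g15740 were named because they were the single called gene of their lists.

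Of the 6 genes for dehydrins, proteins that accumulate in drying tissue, 1 rose, against 0.41% of all genes. RAB16D (LOC_Os11g26750) had 3.94 and 4.49 TPM in OE1 and 0.90 and 0.95 TPM in ZH11 (1.44 ± 0.21, limma adjusted p = 0.0448). RAB21 (LOC_Os11g26790), the most abundant with DHN1, had 188 and 189 TPM in OE1 and 115 and 92.4 TPM in ZH11 (0.86 ± 0.20, limma adjusted p = 0.261). In all 6 both OE1 libraries were above both ZH11 libraries, as in 21.8% of all genes, and the median was 0.82 against 0.01 for all genes. RAB16D reached the 1 TPM minimum only through the OE1 libraries. RAB16B, RAB16C, RAB16D and RAB21 have neighbouring locus numbers on chromosome 11.

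Papain-type cysteine proteases, which degrade protein in senescing and germinating tissue, had a median of 0.20. Of 27 such genes 1 rose, against 0.41% of all genes. This was the vignain precursor gene LOC_Os09g39090, with 8.53 and 7.06 TPM in OE1 and 1.25 and 1.36 TPM in ZH11 (1.93 ± 0.22, limma adjusted p = 0.0139). The EP-B 1 gene LOC_Os01g67980, with 57.0 and 48.7 TPM in OE1 and 16.7 and 17.5 TPM in ZH11, was not called (1.57 ± 0.25, limma adjusted p = 0.0654). The senescence-specific protease match LOC_Os06g38450 lay the other way, with 13.7 and 11.6 TPM in OE1 and 26.2 and 26.9 TPM in ZH11, and was not called. In 15 of the 27, or 55.6%, both OE1 libraries were above both ZH11 libraries, against 21.8% of all genes, and in 4, or 14.8%, both were below, against 19.9%. Of the 27, 2 reached the 1 TPM minimum only through the OE1 libraries.

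Of 27 small heat shock protein genes 1 rose, HSP16.9A (LOC_Os01g04370), with 5.87 and 6.73 TPM in OE1 and 0.98 and 1.12 TPM in ZH11, and the median was 0.18. HSP16.9A did not have 1 TPM in both ZH11 libraries, so it reached the minimum only through the OE1 libraries. Of 14 jacalin-like lectin genes 1 fell, LOC_Os12g14440, and the median was 0.10. The abundant salt-induced lectin gene SALT (LOC_Os01g24710) had 671 and 727 TPM in OE1 and 1472 and 1200 TPM in ZH11 (-0.93) and was not called. Against 0.459% of all genes, no gene was called among 272 NB-ARC resistance genes, 1019 protein kinase genes, 75 WRKY genes, 319 ribosome genes, 56 histone genes and 85 photosynthesis genes, with medians of -0.05 to 0.12. The genes named in the accounts of dehydrins, proteases and heat shock proteins were chosen after their values were seen.

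**Figure D3:**
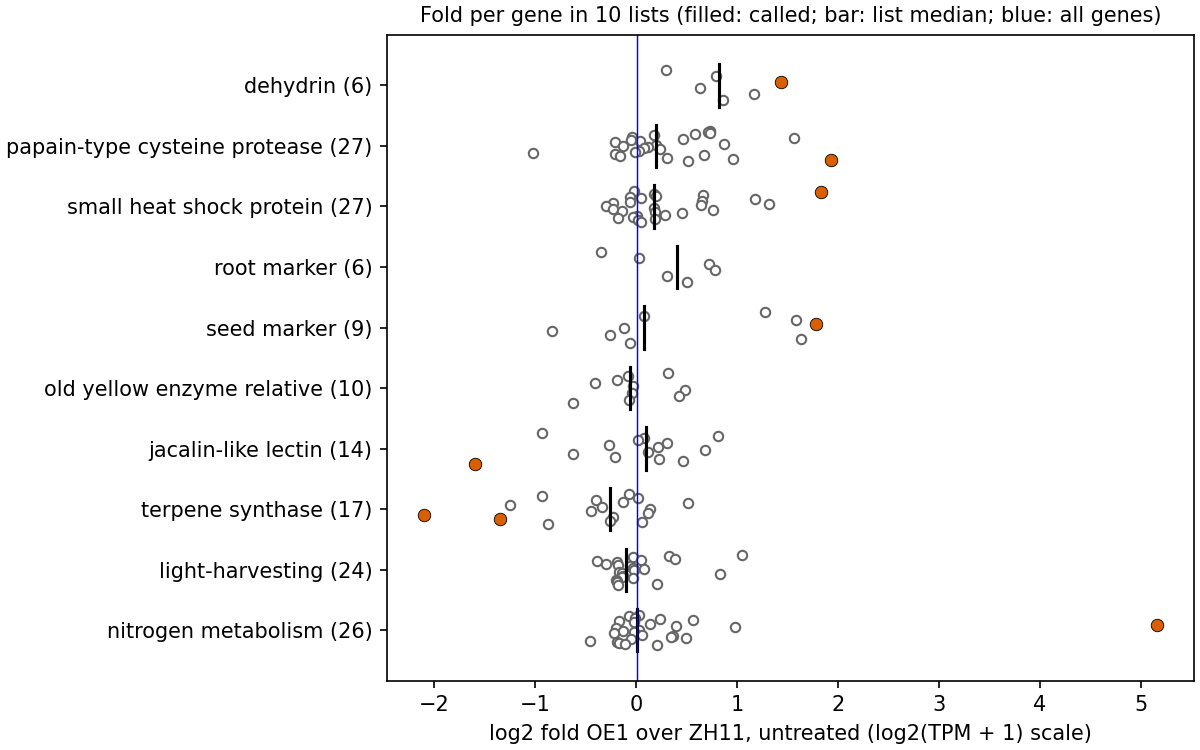
Log2 fold, OE1 over ZH11, of each gene in 10 lists, with the number of genes in parentheses. Filled points are called genes, black bars are list medians, and the blue line is the median of all 24417 genes. All 6 dehydrin genes lie right of the line, and the 10 old yellow enzyme relatives lie on both sides of it.

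Markers of shoot, root, seed and flower were compared as well. The 28 shoot markers had no called gene, a median of -0.03, and summed levels of 64102 and 62629 TPM in OE1 and 64619 and 64482 TPM in ZH11. The 6 root markers described, of 8, had no called gene and a median of 0.41, with summed levels of 763 and 758 TPM in OE1 and 536 and 513 TPM in ZH11. The silicon transporter genes NIP2-1 (LOC_Os02g51110), with 363 and 378 TPM in OE1 and 240 and 211 TPM in ZH11, and LSI2 (LOC_Os03g01700), with 191 and 188 TPM in OE1 and 113 and 106 TPM in ZH11, made up most of that difference. Of the 6, 4 had both OE1 libraries above both ZH11 libraries and 1 had both below, against 21.8% and 19.9% of all genes. The lower one, the potassium channel gene AKT1, had 5.24 and 5.30 TPM in OE1 and 6.46 and 7.62 TPM in ZH11 (-0.35). LOC_Os02g44310 had 172 and 154 TPM in OE1 and 152 and 166 TPM in ZH11 (0.03). Of the 2 root markers not described, the nitrate transporter gene LOC_Os02g02170 was at most 0.12 TPM. The iron transporter gene LOC_Os03g46470 had 0.66 and 0.75 TPM in OE1 and 1.06 and 0.31 TPM in ZH11.

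Of 24 seed markers 9 were described and 1 was called, the amylase gene LOC_Os02g52710, against 0.459% of all genes. Their summed levels were 621 and 425 TPM in OE1 and 177 and 152 TPM in ZH11, nearly all from amylases, while the storage protein gene GLUA2 (LOC_Os10g26060) had 4.55 and 4.53 TPM in OE1 and 4.74 and 4.84 TPM in ZH11 (-0.06). Of the 24, 7 were listed at 0 in all 4 libraries and 14 were under 1 TPM in all 4. Of 76 MADS-box genes 20 were described and none was called, with a median of 0.13. The part of root or seed content in the dehydrin, protease and amylase values was not tested.

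The treated libraries, which enter the untreated comparison only through the pooled spread, showed most of the genes called higher again on the same side. Of the 100, 96 had a fold in the same direction in treated OE1 over treated ZH11, where 47.1% of all the genes described had a log2 fold above 0. In 94 of them both treated OE1 libraries were above both treated ZH11 libraries, against 22.9% of all genes, in 2 both were below, and 83 were called, against 0.766%. By annotation 31 of 33 assembled genes, 28 of 31 with no described function, 14 of 18 transposon-annotated genes and 10 of 18 with a described function were called again. The 9 hAT copies summed to 257 and 271 TPM in treated OE1 and 5.83 and 9.22 TPM in treated ZH11. LOC_Os02g52730 had 32.2 and 27.4 TPM in treated OE1 and 0.66 and 0.04 TPM in treated ZH11, and LOC_Os07g25050 had 3616 and 4129 TPM in treated OE1 and 1069 and 906 TPM in treated ZH11. The vignain precursor gene LOC_Os09g39090 had 0 and 0.06 TPM in treated OE1 and 0.07 and 0.10 TPM in treated ZH11, so that no difference was detectable there. Without any one untreated library or treated OE1 library, the number of genes called in both conditions was 37 to 41, against 88 with all 8 libraries.

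Of the 12 genes called lower, 7 had both treated OE1 libraries below both treated ZH11 libraries, against 19.5% of all the genes described, and 5 were called again, against 0.156%. In 4 both treated OE1 libraries were above both treated ZH11 libraries, against 22.9% of all genes. LOC_Os01g42160 had 0.06 and 0 TPM in treated OE1 and 14.2 and 23.7 TPM in treated ZH11, and LOC_Os09g13440 had 10.3 and 11.6 TPM in treated OE1 and 34.7 and 34.1 TPM in treated ZH11. Of those 4, 2 were called in the opposite direction. LOC_Os06g13390 had 0.94 and 1.01 TPM in treated OE1 and 0.05 and 0 TPM in treated ZH11, and LOC_Os04g52440 had 1.22 and 0.92 TPM in treated OE1 and 0.16 and 0.89 TPM in treated ZH11, and their differences between the genotype effects did not pass (limma adjusted p = 0.0563 and 0.192). Both of the genes called in the opposite direction also passed the test of the difference between the genotype effects, which 3 genes passed in all (0.0123%). ASMT1 had 15.9 and 16.4 TPM in treated OE1 and 7.70 and 7.04 TPM in treated ZH11, and its untreated fold was lower than its treated fold by 2.61 ± 0.20 on the log2 scale (limma adjusted p = 0.0187). LOC_Os12g14440 had 45.0 and 55.1 TPM in treated OE1 and 7.55 and 10.4 TPM in treated ZH11, with a difference of -3.95 ± 0.32 (limma adjusted p = 0.0229). No gene passed this test without any one untreated library or treated OE1 library, while 4900 passed without treated ZH11 replicate 1 and 23 without treated ZH11 replicate 2. LOC_Os04g27670, with 10.7 and 9.45 TPM in treated OE1 and 7.55 and 10.9 TPM in treated ZH11, overlapped there, and its difference did not pass (-2.24 ± 0.28, limma adjusted p = 0.13).

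**Figure D4:**
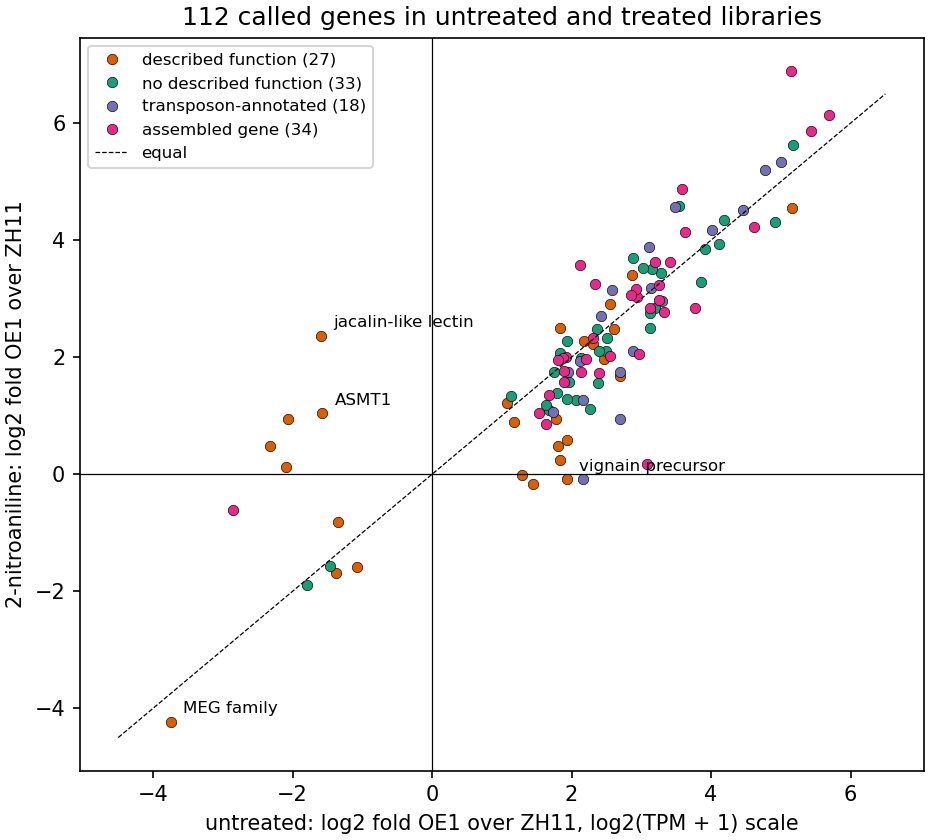
Log2 fold of OE1 over ZH11 in seedlings given 2-nitroaniline (vertical axis) and in untreated seedlings (horizontal axis) for the 112 called genes, coloured by annotation, with 2 libraries per group and a dashed line at equal folds. Most genes on the right lie near the line, and ASMT1 and the jacalin-like lectin gene lie at upper left.

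The called genes with a locus number were spread over the 12 chromosomes. The share called was 0.157% to 0.484% on chromosomes 1 to 11 and 0.917% on chromosome 12, which had 10 genes higher and 2 lower of 1309. No stretch held 3 or more called genes with at most 10 genes between successive ones, and 2 pairs of neighbours did, LOC_Os02g52710 with LOC_Os02g52730 and LOC_Os03g02460 with LOC_Os03g02470, all 4 of them higher in OE1. LOC_Os03g02460, a short-chain dehydrogenase gene, had 20.1 and 15.6 TPM in OE1 and 2.68 and 2.86 TPM in ZH11 (2.31 ± 0.20, limma adjusted p = 0.00383).

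The authors' deposited table for the same comparison lists 175 genes, 132 of them higher and 43 lower in OE1. Of these 71 were called here too, all in the same direction, which is 40.6% of the authors' deposited table and 63.4% of the 112. The authors' deposited table holds 0 assembled genes, and of the 78 genes called here with a LOC_Os identifier 71 are in it, or 91.0%. The 90 further genes of the authors' deposited table that are among those described were not called here, and all 90 had folds in the same direction.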

How the data were processed

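The authors deposited a TPM value per gene and library, to 2 decimals. The authors' deposited table of called genes gave estimated counts, a log2 fold change and p-values for its genes alone. Deposited alignment and trimming tables gave the count of reads and the percent mapped, per the file headers. Cufflinks 2.2.1 appears in the submitters' processing notes without a stated role. An aligner, a counter, the counting strand and a genome build are not given in the sources used here. Libraries were made with a SMARTER mRNA kit, per the labels' protocols.

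The 25281 genes that reached 1 TPM in 2 or more of all 8 libraries were fitted with limma 3.58.1 in R 4.3.3 on log2(TPM + 1), as 4 group means with an eBayes trend. Benjamini-Hochberg adjustment ran over all 25281, and counts are given for the 24417 that reach 1 TPM in 2 untreated libraries. The fit was tested on simulated data. Read-count tests were not run because estimated counts cover the authors' called genes alone.

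Named genes were called, had non-overlapping groups and a description, and were the 10 largest folds per direction whose higher group averaged 5 TPM or more, and again those whose lower group did. To these were added the 2 largest of any list with 4 or more called genes, the OPR relatives and the markers. The genes described and the lists were chosen with earlier results of these data known. Symbols are best rice Swiss-Prot matches. Chromosomes come from locus identifiers. The labels do not make the replicate numbers a pairing. Deviations of same-numbered libraries had a correlation of -0.027 between the untreated groups. It was 0.233 between untreated and treated ZH11, whose replicate 2 are the longer-read libraries, and -0.28 between treated OE1 and treated ZH11.

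Alternatives were TMM (edgeR 4.0.16, factors only) and median-of-ratios rescaling, pseudocounts of 0.1 and 5, the described genes only, no filter, a filter at 5 TPM, the 4 untreated libraries alone, no trend, no fold threshold, a replicate block, library weights, removal of the length gradient, a read-length term, and each library left out. The shorter-read libraries alone were added after seeing the data. Plots used Python 3.11.15 with matplotlib 3.10.9.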

Additional observations from a re-analysis of the deposited data

Results flagged for a closer look

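In 3 genes the OE1 over ZH11 difference itself differed between untreated and treated seedlings by a test of that difference. For ASMT1 (LOC_Os09g17560) the untreated log2 fold minus the treated one was -2.61 ± 0.20 (limma adjusted p = 0.0187, n = 2 per group), and for the jacalin-like lectin gene LOC_Os12g14440 it was -3.95 ± 0.32 (limma adjusted p = 0.0229). For the UDP-glycosyltransferase gene LOC_Os09g34250 it was 2.42 ± 0.22 (limma adjusted p = 0.0378). That gene had 7.08 and 6.71 TPM in untreated OE1 and 4.73 and 4.09 TPM in untreated ZH11, a difference that was not called, and 15.8 and 14.0 TPM in treated OE1 and 57.8 and 56.6 TPM in treated ZH11. The groups did not overlap in either condition in any of the 3 genes, and none of the 3 differences passed without any one untreated library or treated OE1 library.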

How the results depend on the processing

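The counts of genes called in untreated OE1 moved with the filter, the pseudocount and the library weights. Genes called higher, 100 as reported, numbered 61 with a pseudocount of 5, 58 with no filter, 61 with the filter at 5 TPM and 181 with weights. Genes called lower, 12 as reported, numbered 6, 5, 7 and 40 under the same alternatives. Transposon-annotated genes called higher, 18 as reported, numbered 9 with no filter and 28 with weights. Assembled genes, 33 as reported, numbered 17 with a pseudocount of 5, 20 with no filter, 18 with the filter at 5 TPM and 20 with the replicate block on the 4 untreated libraries. Genes called the same way in treated seedlings, 88 as reported, numbered 49, 47 and 53 with a pseudocount of 5, no filter and the filter at 5 TPM, 55 with the replicate block and 47 with weights. Genes passing the test of the difference, 3 as reported, numbered 6 with TMM, 0 with a pseudocount of 0.1, 5 with one of 5, 10 with no filter, 0 with the replicate block, 1 with weights, 9 with the length gradient removed and 147 in the shorter-read libraries alone.

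With each library left out in turn, the ranges were 36 to 142 higher, 1 to 28 lower, 7 to 23 transposon-annotated, 12 to 38 assembled, 37 to 120 called in treated seedlings and 0 to 4900 for the difference. Leaving out a library also removes degrees of freedom, and the cause of the other shifts was not tested. The labels do not make the replicate numbers a pairing, and a block for them called 76 genes, 73 of them among the 112. No named gene that was called changed the sign of its fold. Some named genes that were not called did, as OPR7 with log2 folds of -0.10 to 0.02. Of the 37 named genes 27 were called, and 11 of these were called under all 24 alternatives that tested them. Depth per gene is unknown outside the authors' called genes.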
